A study of Mus musculus with 25 samples.

Results

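The genes described here encode the proteasome, the barrel-shaped protease that degrades ubiquitin-tagged proteins. They were chosen by name, as every listed gene whose symbol is Psma, Psmb, Psmc, Psmd, Psme, Psmf or Psmg followed by a number, and the rule used no measured value. It found 48 of the 12454 genes in the 4 deposited tables. Of these, 5 are immune members (Psmb8, Psmb9, Psmb10, Psme1 and Psme2), 31 are constitutive subunits of the 20S core or 19S cap, and 12 are other activators, assembly chaperones and relatives. The label holds for 47 of the 48: Psmc3ip is named after a subunit it binds and is a recombination factor, not a part of the proteasome.

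The 20S core is a stack of rings of alpha and beta subunits, and 3 beta subunits carry its proteolytic sites: Psmb5, Psmb6 and Psmb7. Interferon-exposed cells build a variant, the immunoproteasome, in which Psmb8, Psmb9 and Psmb10 take the places of Psmb5, Psmb6 and Psmb7, and whose peptides feed class I antigen presentation. Psme1 and Psme2 form PA28, a cap that opens the core, and Psme3 forms a related nuclear cap. In the healthy nervous system the immune subunits are usually low and the constitutive ones are present in nearly every cell.

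The libraries hold ribosome-associated polyA RNA from astrocytes of mouse thoracic spinal cord, precipitated through a haemagglutinin tag that RiboTag mice carry on ribosomes of cells expressing Cre. All mice, controls included, carried GfapCre and floxed Ribotag, so the tag and any deletion follow Gfap-driven Cre and not a single defined cell. Wild-type (WT) mice had no further floxed gene, Stat3cKO mice carried Stat3fl/fl, and Smarca4cKO mice carried Smarca4fl/fl, which removes a chromatin remodelling ATPase. WT and Stat3cKO mice were of strain C57BL6 and Smarca4cKO mice of C57BL6;129S2, so strain and Smarca4 deletion cannot be told apart. Mice were untreated (4 WT, 3 Stat3cKO and 3 Smarca4cKO), or studied 24 hours after intraperitoneal lipopolysaccharide (LPS) at 5 mg per kg (4 WT, 4 Stat3cKO and 3 Smarca4cKO). A further 4 Smarca4cKO mice were studied 14 days after a crush spinal cord injury (SCI) at T10, from tissue that included the lesion core. Age is not given in the labels used here.

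The 25 libraries held 52433934 to 106513035 counts. Of 12 astrocyte markers all 12 had values, summing to 42143 to 92387 CPM (read counts relative to library size) per library, and the list's most abundant genes were Gfap and Atp1b2. Smarca4 stood at 12.04 to 21.97 CPM in the uninjured and SCI Smarca4cKO libraries against 64.5 to 125 CPM in WT. The library labelled Smarca4cKO LPS 2 had 3664 Smarca4 counts (50.4 CPM) and goes against its label, while LPS 1 and 3 had 1 and 651 counts. Results on the Smarca4cKO LPS group are given with and without it. Stat3 stood at 8.68 to 21.7 CPM in uninjured Stat3cKO libraries, against 102 to 154 CPM in uninjured WT. After LPS it stood at 325, 127, 93.5 and 213 CPM in Stat3cKO, against 178 to 520 CPM in WT. Stat3cKO LPS 1 and 4 thus lay within the WT LPS range and LPS 2 and 3 below it. The LPS libraries labelled Stat3cKO were not depleted of Stat3 reads to the level of the uninjured ones.

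The promoters of the 4 immune genes that rose in Stat3cKO after LPS and of Psmb5, the partner of Psmb8, are shown so that their letters can be set beside the responses. Each window runs from 250 bases before to 50 bases after the RefSeq start in GRCm38.p6, 5′ to 3′ on the gene's strand, and capitals mark matches to GAAA, any 2 bases, GAAA (an interferon-response core), TTCNNNGAA (a STAT site core) or TGANNNNGC (a Nrf2 site core) on either strand.
Psmb8, chr17:34197945-34198244, plus strand: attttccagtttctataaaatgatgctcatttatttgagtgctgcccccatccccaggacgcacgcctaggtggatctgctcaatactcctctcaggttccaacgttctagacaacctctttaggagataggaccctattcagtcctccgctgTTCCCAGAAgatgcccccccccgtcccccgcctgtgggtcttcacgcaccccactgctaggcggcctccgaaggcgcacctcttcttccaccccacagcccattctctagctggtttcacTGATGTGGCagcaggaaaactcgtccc
Psmb9, chr17:34187281-34187580, minus strand: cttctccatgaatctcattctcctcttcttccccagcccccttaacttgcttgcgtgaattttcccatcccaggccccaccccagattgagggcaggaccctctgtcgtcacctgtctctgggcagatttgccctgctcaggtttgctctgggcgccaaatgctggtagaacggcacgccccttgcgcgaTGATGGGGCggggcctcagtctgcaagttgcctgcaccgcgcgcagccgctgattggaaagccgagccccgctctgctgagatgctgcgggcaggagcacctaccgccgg
Psmb10, chr8:105938343-105938642, minus strand: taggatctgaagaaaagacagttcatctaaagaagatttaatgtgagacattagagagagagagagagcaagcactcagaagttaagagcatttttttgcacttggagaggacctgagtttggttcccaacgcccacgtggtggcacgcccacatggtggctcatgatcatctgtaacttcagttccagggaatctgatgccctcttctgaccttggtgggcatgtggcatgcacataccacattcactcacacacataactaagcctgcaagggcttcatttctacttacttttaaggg
Psme1, chr14:55578244-55578543, plus strand: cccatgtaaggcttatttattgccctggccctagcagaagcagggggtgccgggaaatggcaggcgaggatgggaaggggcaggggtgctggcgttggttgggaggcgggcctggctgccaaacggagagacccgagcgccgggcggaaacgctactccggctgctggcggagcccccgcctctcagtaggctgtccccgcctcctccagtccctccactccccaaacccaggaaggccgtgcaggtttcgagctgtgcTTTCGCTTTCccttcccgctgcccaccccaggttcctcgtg
Psmb5, chr14:54617946-54618245, minus strand: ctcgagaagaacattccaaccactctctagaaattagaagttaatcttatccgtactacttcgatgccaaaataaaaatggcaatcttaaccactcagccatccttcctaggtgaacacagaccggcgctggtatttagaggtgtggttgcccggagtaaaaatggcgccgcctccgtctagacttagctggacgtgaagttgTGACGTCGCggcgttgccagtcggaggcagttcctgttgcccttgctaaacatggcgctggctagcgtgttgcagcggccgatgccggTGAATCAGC
In these windows the STAT core was matched in Psmb8 alone, starting 97 bases before the RefSeq start, and the same letters read on both strands. The interferon core was matched in Psme1 alone, on the minus strand 9 bases after the start. Psmb10 had no match, and Psmb5 had 2 matches to the Nrf2 core. Of all 32851 RefSeq windows of the same length, 3.44% held the interferon core, 8.30% the STAT core and 41.3% the Nrf2 core, so the last is a common match. Among constitutive members with a window the same motifs were matched in 2, 1 and 14 of 25. Windows were at hand for 41 of the 48 members. Those of Psmb8, Psmb9 and Psme1 lie wholly within the GENCODE gene spans given below, so sequence before their GENCODE starts was not searched. A match is a description of letters and not of binding.

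In the GENCODE M21 annotation (GRCm38) Psmb8 lies at chr17:34197721-34201454 on the plus strand and Psmb9 at chr17:34181987-34187764 on the minus strand, in the class I and II histocompatibility region with the peptide transporter genes Tap1 and Tap2. Psmb9 and Tap1 overlap by 212 bp on opposite strands, and their RefSeq starts are 226 bp apart, so that their promoter windows share 275 bases. Whether counting used strand is not given in the sources used here, so reads of that overlap cannot be told apart. Psme1 (chr14:55578123-55581529, plus) and Psme2 (chr14:55587441-55591113, minus) are 5.91 kb apart. Psmb10 lies at chr8:105935735-105938444 (minus), Psmb5 at chr14:54614119-54618022 (minus), Psmb6 at chr11:70525367-70527858 (plus) and Psmb7 at chr2:38588036-38644087 (minus). All are protein-coding, and counts are over whole genes.

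After LPS the immune catalytic subunits had the largest log2 estimates among the proteasome genes of WT and of Stat3cKO. Psmb8 rose 8.25-fold in WT and 102-fold in Stat3cKO, where Psmb9 (157-fold), Psmb10 (11.7-fold) and Psme1 (3.93-fold) also rose. Among the constitutive subunits none passed the test in WT, and 2 of 31, Psmb2 and Psma7, rose in Stat3cKO. Over all genes 1.54% were called higher in WT and 7.12% in Stat3cKO, and the 2 of 31 is near the latter share. In Smarca4cKO, Psmb8 was close to absent without injury and stood at 10.2 to 64.1 CPM after LPS or SCI. Fold changes are from edgeR's quasi-likelihood test on raw counts within each table, a call is a Benjamini-Hochberg adjusted p under 0.05 over all genes of that table, and estimates are log2 fold change ± SE.

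Psmb8 encodes the immune form of the chymotrypsin-like beta5 subunit. In uninjured WT libraries it stood at 16.3, 7.26, 3.38 and 1.56 CPM, and after LPS at 22.1, 84.8, 91.0 and 42.9 CPM. All 4 LPS values lay above all uninjured ones, although WT LPS 1 was near the highest uninjured library. In Stat3cKO the uninjured libraries had 6.45, 3.50 and 0.433 CPM and the LPS libraries 307, 488, 387 and 209 CPM. In Smarca4cKO the uninjured counts were 0, 1 and 1, the LPS libraries had 64.1, 54.5 and 22.3 CPM (3831, 3961 and 2529 counts), and the SCI libraries 10.2, 35.4, 23.4 and 26.8 CPM. The groups did not overlap within any genotype.

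The WT change in Psmb8 was 3.05 ± 0.69 (adjusted p = 0.0435), the 1 member called of 47 tested, against 2.54% of all 10566 genes called (1.54% higher, 0.994% lower). The WT call is thin: it was lost in 6 of the 8 fits that left out 1 library (without any of uninjured 2, 3 and 4 or LPS 2, 3 and 4), with adjusted p up to 0.136. In Stat3cKO the change was 6.67 ± 0.81 (adjusted p = 0.00063), and it passed in all 7 such fits. In SCI it was 11.16 ± 1.67 (adjusted p = 0.00652), again in all 7. In Smarca4cKO after LPS the estimate was 12.20 ± 2.03 with an adjusted p of 0.109, which does not pass.

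With 2 uninjured counts in all, the size of the Smarca4cKO changes is better read from the counts: the rate ratio was 5136 for LPS (95% exact interval 1421 to 42415) and 2746 for SCI (760 to 22677), and these intervals cover counting error only. Both ratios use the same 3 uninjured libraries. DESeq2 and a fit of all 7 groups called the LPS change, and the authors' deposited table gives it a false discovery rate of 0.000165. Without the library labelled Smarca4cKO LPS 2 the estimate was 12.10 (adjusted p = 0.375) and the rate ratio 4494 (1244 to 37117).

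**Figure D1:**
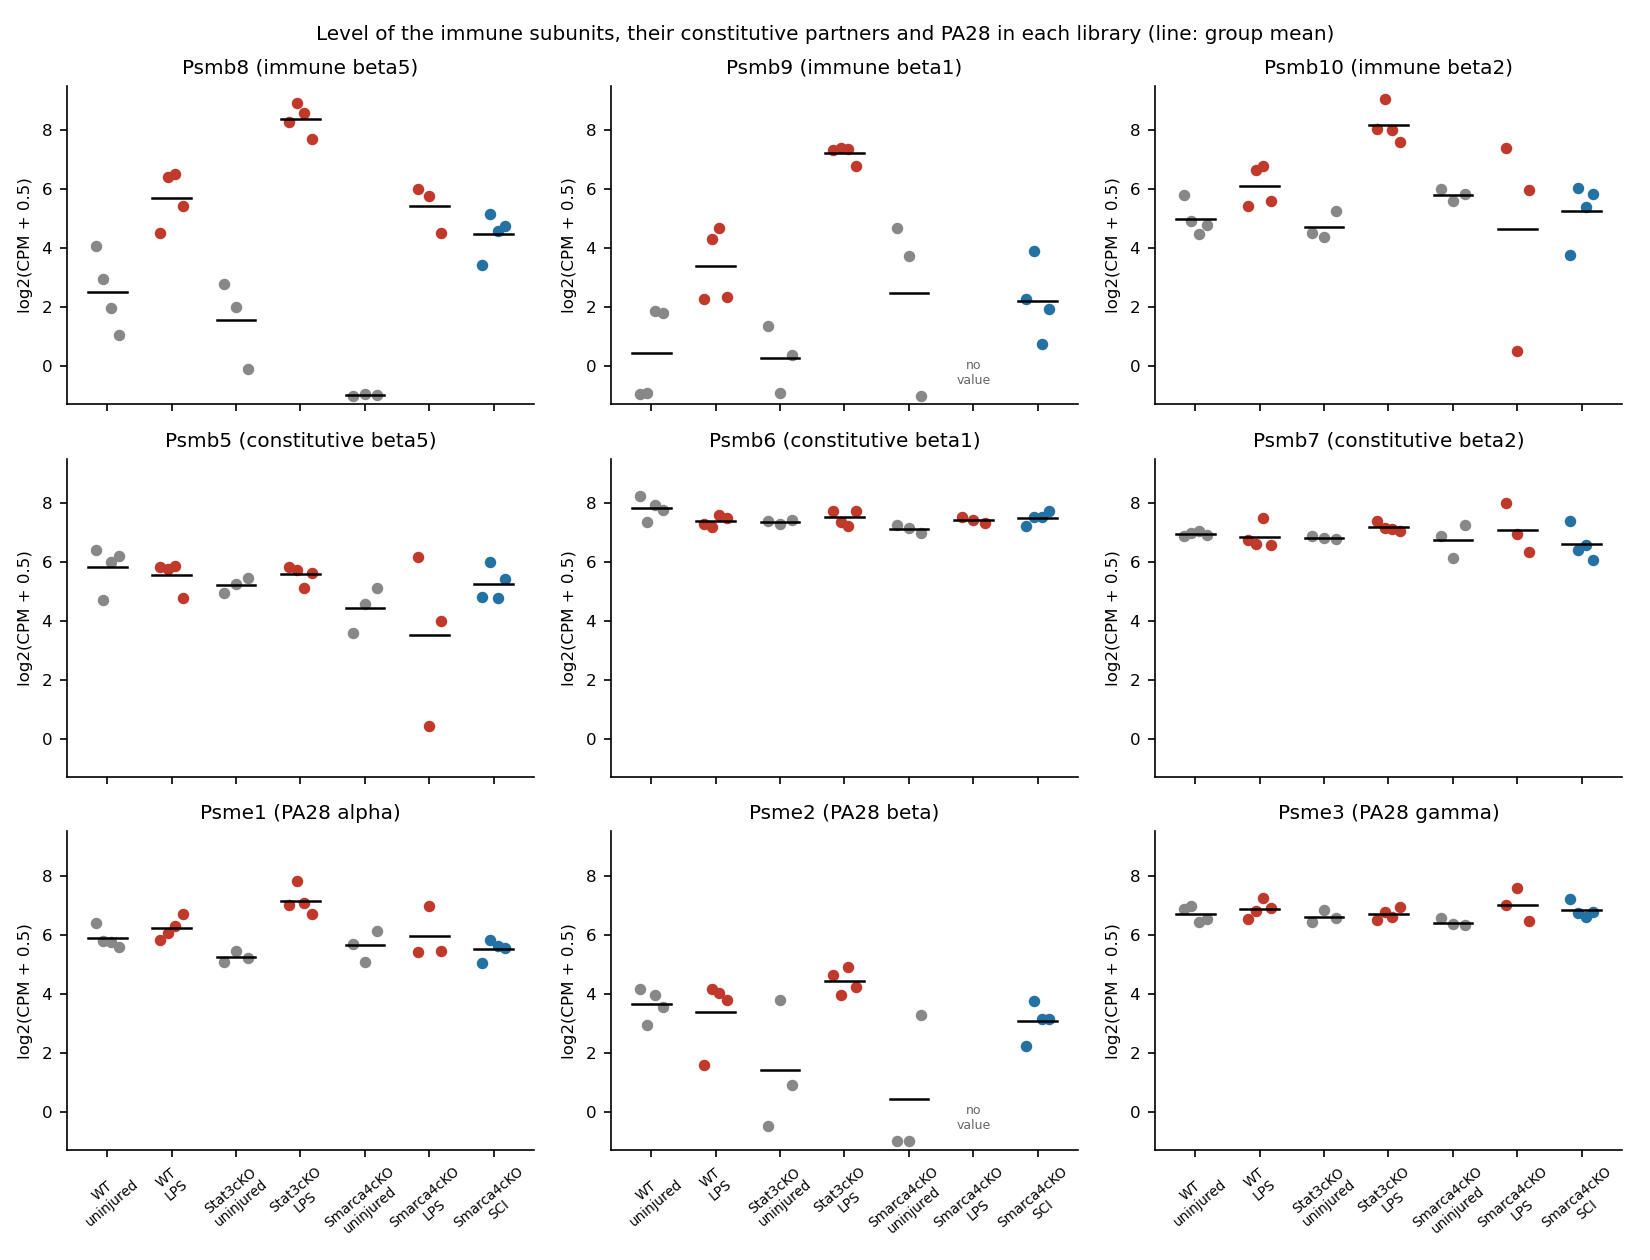
Level of 9 proteasome genes in each of the 25 libraries as log2(CPM + 0.5), with 1 point per library, grey for uninjured, red for LPS, blue for SCI, and a line at the group mean of the plotted values. The upper row holds the immune catalytic subunits, the middle row their constitutive partners and the lower row PA28; Psmb8 separates LPS and SCI from uninjured libraries in each genotype, while Psmb6 lies between 127 and 303 CPM in all 25 libraries.

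Psmb9, the immune beta1 subunit, was scarce and uneven without injury. Uninjured WT libraries had 0.0191, 0.0366, 3.14 and 2.95 CPM, from 1, 3, 156 and 227 counts, and LPS libraries 4.36, 19.4, 25.1 and 4.55 CPM. The WT groups did not overlap, yet the estimate of 3.08 ± 1.52 did not pass (adjusted p = 0.413). In Stat3cKO it stood at 2.06, 0.0323 and 0.796 CPM uninjured and at 161, 169, 166 and 110 CPM after LPS. The Stat3cKO change of 7.30 ± 0.90 passed (adjusted p = 0.000687) in the full fit and in all 7 fits without 1 library. In Smarca4cKO uninjured libraries Psmb9 was at 25.3, 12.7 and 0 CPM and in SCI libraries at 4.34, 14.5, 1.18 and 3.35 CPM, overlapping groups with an estimate of −1.20 ± 1.91 (adjusted p = 0.885). Psmb9 and Psmb8 therefore stood apart in uninjured Smarca4cKO: 2 of the 3 libraries held 2239 and 941 Psmb9 counts while none held more than 1 Psmb8 count. Psmb9 has no values in the Smarca4cKO LPS table analysed here.

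Psmb10, the immune form of the trypsin-like beta2 subunit, was the immune catalytic subunit with a clear level without injury. Uninjured WT libraries had 55.8, 30.0, 21.9 and 27.0 CPM and LPS libraries 42.3, 99.8, 111 and 48.3 CPM. The WT groups overlapped, and the estimate of 1.12 ± 0.39 did not pass (adjusted p = 0.185). In Stat3cKO Psmb10 went from 22.4, 20.3 and 37.9 CPM to 263, 531, 256 and 193 CPM, a change of 3.55 ± 0.39 (adjusted p = 0.000389) that passed in all 7 fits without 1 library. In Smarca4cKO it stood at 63.1, 47.7 and 57.0 CPM uninjured and at 13.02, 65.8, 41.8 and 56.9 CPM after SCI, with overlapping groups and an estimate of −0.40 ± 0.53 (adjusted p = 0.836). After LPS its values were 170, 0.935 and 62.1 CPM, the low one being the library labelled Smarca4cKO LPS 2. The LPS estimate was 0.48 ± 1.27 with that library and 1.06 without it, and neither passed (adjusted p = 0.998 and 0.999).

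Psme1 and Psme2 encode the alpha and beta chains of PA28. Psme1 stood at 84.0, 54.7, 53.9 and 47.7 CPM in uninjured WT libraries and at 56.6, 65.6, 78.7 and 104 CPM after LPS, overlapping values with an estimate of 0.31 ± 0.28 (adjusted p = 0.729). In Stat3cKO it went from 33.3, 43.5 and 36.9 CPM to 127, 225, 134 and 105 CPM. That change of 1.97 ± 0.28 passed (adjusted p = 0.0017), also in all 7 fits without 1 library. Smarca4cKO values were 51.4, 33.3 and 69.3 CPM uninjured, 42.6, 125 and 43.2 CPM after LPS and 32.5, 56.3, 48.5 and 46.1 CPM after SCI. The Smarca4cKO groups overlapped, and neither estimate passed (0.43 ± 0.68, adjusted p = 0.998, for LPS, and −0.23 ± 0.38, adjusted p = 0.893, for SCI). Without the library labelled Smarca4cKO LPS 2 the LPS estimate turned to −0.25.

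Psme2 counts were lower and less even than those of Psme1. In Stat3cKO they were 0.215, 13.3 and 1.38 CPM uninjured and 24.4, 14.9, 29.1 and 18.1 CPM after LPS, groups that did not overlap but whose estimate of 2.13 ± 1.05 missed the threshold (adjusted p = 0.249). It passed only without Stat3cKO uninjured 2 (adjusted p = 0.0186). In WT the values were 17.4, 7.22, 14.9 and 11.1 CPM uninjured and 2.48, 17.5, 15.7 and 13.2 CPM after LPS, with an estimate of −0.08 ± 0.75 (adjusted p = 0.986). In Smarca4cKO 2 uninjured libraries had 0 counts and the third 9.22 CPM, against 4.12 to 13.1 CPM after SCI, and the estimate of 1.41 ± 2.33 (adjusted p = 0.892) passed only without Smarca4cKO uninjured 3 (adjusted p = 0.00744). Psme2b is a copy of Psme2 at chr11:48945354-48946190, and the transcripts share 99.4% of bases over 794 aligned positions, so reads of the pair may have been split or lost and each value is uncertain. Psme2b stood at 13.3, 10.1 and 11.9 CPM in uninjured Stat3cKO libraries and at 69.4, 84.3, 81.3 and 43.0 CPM after LPS. It rose by 2.58 ± 0.31 (adjusted p = 0.000564), a call that the fit of all 7 groups did not make, while in WT its values overlapped (8.71 to 26.0 CPM uninjured, 8.76 to 26.8 CPM after LPS, estimate −0.43 ± 0.57, adjusted p = 0.85).

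The constitutive partners give the contrast. Psmb5 stood at 84.0, 25.5, 64.0 and 72.4 CPM in uninjured WT libraries and at 55.8, 53.5, 57.9 and 26.9 CPM after LPS, and in Stat3cKO at 30.2, 38.0 and 43.2 CPM and then 56.9, 52.2, 34.4 and 49.2 CPM. Psmb6, the most abundant member per kilobase in uninjured WT (291 CPM per kb of transcript), stood at 303, 164, 244 and 216 CPM and after LPS at 157, 146, 192 and 181 CPM in WT, and at 168, 155 and 173 CPM and then 214, 163, 149 and 210 CPM in Stat3cKO. Psmb7 went from 116, 125, 131 and 120 CPM to 107, 97.6, 178 and 93.7 CPM in WT and from 116, 112 and 109 CPM to 166, 141, 138 and 133 CPM in Stat3cKO. Of these partner values only the Stat3cKO ones of Psmb7 did not overlap between groups. In Smarca4cKO Psmb5 stood at 11.4, 23.3 and 34.2 CPM uninjured and at 70.8, 0.852 and 15.6 CPM after LPS. Its SCI values were 27.2 to 63.6 CPM, and the 0.852 was the library labelled Smarca4cKO LPS 2. Psmb6 there stood at 127 to 152 CPM uninjured, 159 to 182 CPM after LPS without overlap, and 149 to 212 CPM after SCI. Psmb7 had 70.2 to 153, 80.0 to 255 and 65.9 to 165 CPM in the same groups. None of the 3 partners passed the test in any of the 4 comparisons: WT estimates ran from −0.49 to −0.08 and Stat3cKO estimates from 0.17 to 0.39. Psme3, the nuclear cap gene, had estimates of 0.15 ± 0.23 in WT and 0.12 ± 0.19 in Stat3cKO (adjusted p = 0.878 and 0.782).

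Levels per kilobase of transcript, which allow genes to be set side by side, show how the RNA of each immune gene compared with that of its partner. In uninjured WT libraries Psmb8 averaged 4.38 CPM per kb against 80.9 for Psmb5, Psmb9 1.14 against 291 for Psmb6, and Psmb10 25.7 against 106 for Psmb7. After LPS in WT the immune averages were 37.0, 9.89 and 57.4 CPM per kb and the partner averages 63.9, 212 and 103, so each immune gene remained below its partner. After LPS in Stat3cKO Psmb8 averaged 214 CPM per kb against 63.4 for Psmb5, and Psmb10 237 against 125 for Psmb7, so both stood above their partners. Psmb9 averaged 112 against 231 for Psmb6 there and stayed below.

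Within each library the ratio of an immune count to its partner's count needs no scaling between libraries. The log2 of (Psmb8 count + 1) over (Psmb5 count + 1) was −2.36, −1.81, −4.24 and −5.53 in uninjured WT libraries and −1.34, 0.67, 0.65 and 0.67 after LPS. In Stat3cKO it was −2.23, −3.43 and −6.60 uninjured and 2.43, 3.23, 3.49 and 2.09 after LPS. As a share of the pair's counts, Psmb8 thus made up 0.992% to 17.6% in uninjured Stat3cKO libraries and 81.0% to 91.8% after LPS. The mean ratio differed by 3.65 in WT, 6.90 in Stat3cKO, 12.18 in Smarca4cKO after LPS and 9.27 in Smarca4cKO after SCI. The Psmb9 to Psmb6 ratio differed by 5.21 in WT, 8.29 in Stat3cKO and 0.97 in SCI, and the Psmb10 to Psmb7 ratio by 1.22, 3.12 and −0.40, with −1.70 in Smarca4cKO after LPS. Without the library labelled Smarca4cKO LPS 2 the Smarca4cKO LPS differences were 10.25 for Psmb8 to Psmb5 and 0.48 for Psmb10 to Psmb7, so the direction of the latter rests on that 1 library. For PA28, summed Psme1 and Psme2 over Psme3, the differences were 0.10 in WT, 1.87 in Stat3cKO and −0.37 in SCI.

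These 14 ratio differences were tested by two-sided exact permutation over libraries. Groups were fully apart for Psmb8 to Psmb5 in each comparison, for Psmb9 to Psmb6 in WT and Stat3cKO, and for Psmb10 to Psmb7 and PA28 in Stat3cKO. With 4 against 4 or 4 against 3 libraries the exact test gives 0.0286 at the least, and with 3 against 3 it gives 0.1. The 7 differences at 0.0286 had an adjusted p of 0.0571 over the 14 tests, so none passed.

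**Figure D2:**
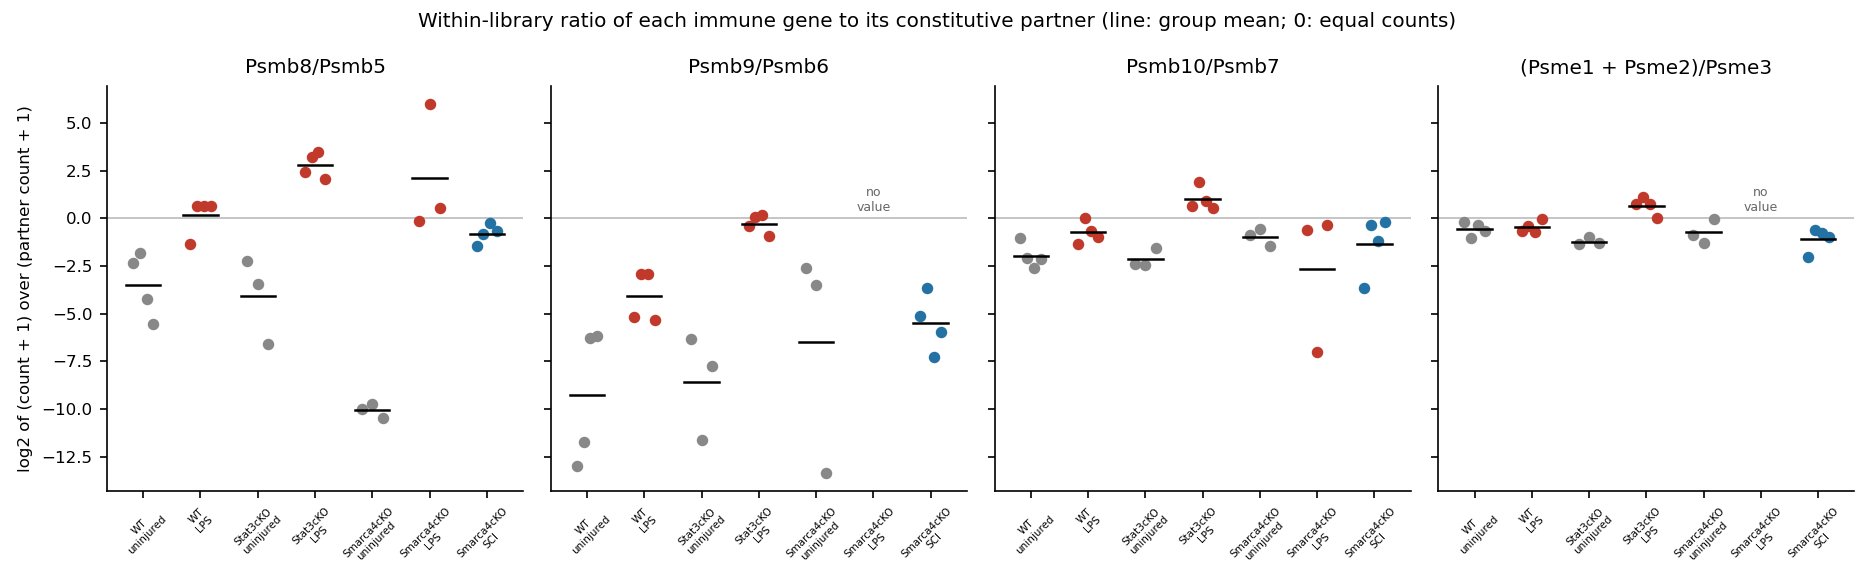
Within-library log2 ratio of (count + 1) of each immune gene, or of Psme1 plus Psme2, to (count + 1) of its constitutive partner, with 1 point per library, grey for uninjured, red for LPS, blue for SCI, and a line at the group mean. The horizontal line at 0 marks equal counts; the 4 Stat3cKO LPS libraries sit above 0 for Psmb8 over Psmb5 (2.09 to 3.49) and Psmb10 over Psmb7, and the low Psmb10 point in Smarca4cKO LPS is library 2.

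Among the 31 constitutive subunits the 20S alpha ring (Psma1 to Psma7), the non-catalytic beta subunits (Psmb1 to Psmb4), the 19S ATPases (Psmc1 to Psmc6) that unfold substrates, and the 19S lid and base subunits that bind and clip ubiquitin were tested gene by gene. In WT after LPS, where edgeR called 2.54% of 10566 genes, 0 of 31 passed in edgeR, 0 in DESeq2, and 3 had an unadjusted p under 0.05. Their median estimate was −0.07, beside −0.00 over all genes, and 12 of 31 estimates were above 0. In Stat3cKO, where 10.6% of 11709 genes were called (7.12% higher, 3.44% lower), 8 of 47 members were called: 4 of 5 immune, 2 of 31 constitutive and 2 of 11 other members. DESeq2 called 11 higher and 1 lower there, adding the constitutive Psma2 and Psmb1 and, of the other members, Psmf1 and Psmg4, while the fit of all 7 groups called Psmb2, Psmb8, Psmb10 and Psme1 only, of 42 members that exclude Psmb9. The constitutive median was 0.28 beside −0.01 over all genes, with 23 of 31 estimates above 0. Psmb2, a non-catalytic beta subunit, went from 134, 122 and 68.1 CPM to 339, 407, 252 and 246 CPM and rose by 1.54 ± 0.27 (adjusted p = 0.00577), in all 7 fits without 1 library. Psma7, an alpha ring subunit, went from 70.8, 70.4 and 65.5 CPM to 196, 129, 102 and 127 CPM and rose by 1.02 ± 0.23 (adjusted p = 0.0196), a call lost without any 1 of the 3 uninjured libraries. Neither pair of groups overlapped.

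By ring, the Stat3cKO medians were 0.55 for the 7 alpha subunits, 0.55 for the 4 non-catalytic beta subunits and 0.38 for the 3 constitutive catalytic ones, against 0.06 for the 6 ATPases and 0.22 for the 11 other 19S subunits. The 20S sum over constitutive members was 973 to 1071 CPM in uninjured Stat3cKO libraries and 1366 to 1715 CPM after LPS, without overlap, while the 19S sum was 1518 to 1814 and 1625 to 1864 CPM and overlapped. In WT both sums overlapped. The WT 20S sum was 1161 to 1624 CPM uninjured and 1030 to 1605 CPM after LPS. The uninjured Stat3cKO libraries thus lay below all uninjured WT ones in this sum, and the rise started from that lower level. Groups did not overlap, with LPS higher, for 15 of 47 members in Stat3cKO (background 14.3% of genes) and for 3 of 47 in WT (background 6.24%), where these were Psmb8, Psmb9 and Psmd7. With LPS lower, they did not overlap for 2 of 47 in Stat3cKO (Psmd5 and Psmd10, background 13.1%). The authors' deposited table for Stat3cKO holds 9 members higher and 1 lower at a false discovery rate under 0.05, adding Psma2 and Psmg4 to the genes called here.

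The 19S assembly chaperone Psmd5 was the 1 member that fell in Stat3cKO. It stood at 52.5, 49.2 and 37.1 CPM uninjured and at 16.1, 22.3, 20.5 and 13.1 CPM after LPS, a change of −1.35 ± 0.30 (adjusted p = 0.0177) that was lost without uninjured 1 or 2. In WT its values overlapped, with an estimate of −0.24 ± 0.42 (adjusted p = 0.902). The 20S assembly chaperones Psmg1 to Psmg4 had no call in edgeR in any comparison, although DESeq2 called Psmg4 higher in Stat3cKO after LPS. Psmg1 was lower in each WT LPS library (17.1, 17.3, 8.27 and 18.8 CPM) than in each uninjured one (67.2, 23.7, 32.7 and 21.4 CPM), where 4.97% of genes had groups apart in that direction. Psmg4 in Stat3cKO went from 10.3, 2.86 and 5.74 CPM to 18.5, 24.1, 17.9 and 23.5 CPM, with an estimate of 1.75 ± 0.53 that missed the threshold (adjusted p = 0.0611). Psmf1, the PI31 regulator, had 0.77 ± 0.24 in Stat3cKO (adjusted p = 0.0636) and was called by DESeq2, and the activator Psme4 had −0.12 there.

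**Figure D3:**
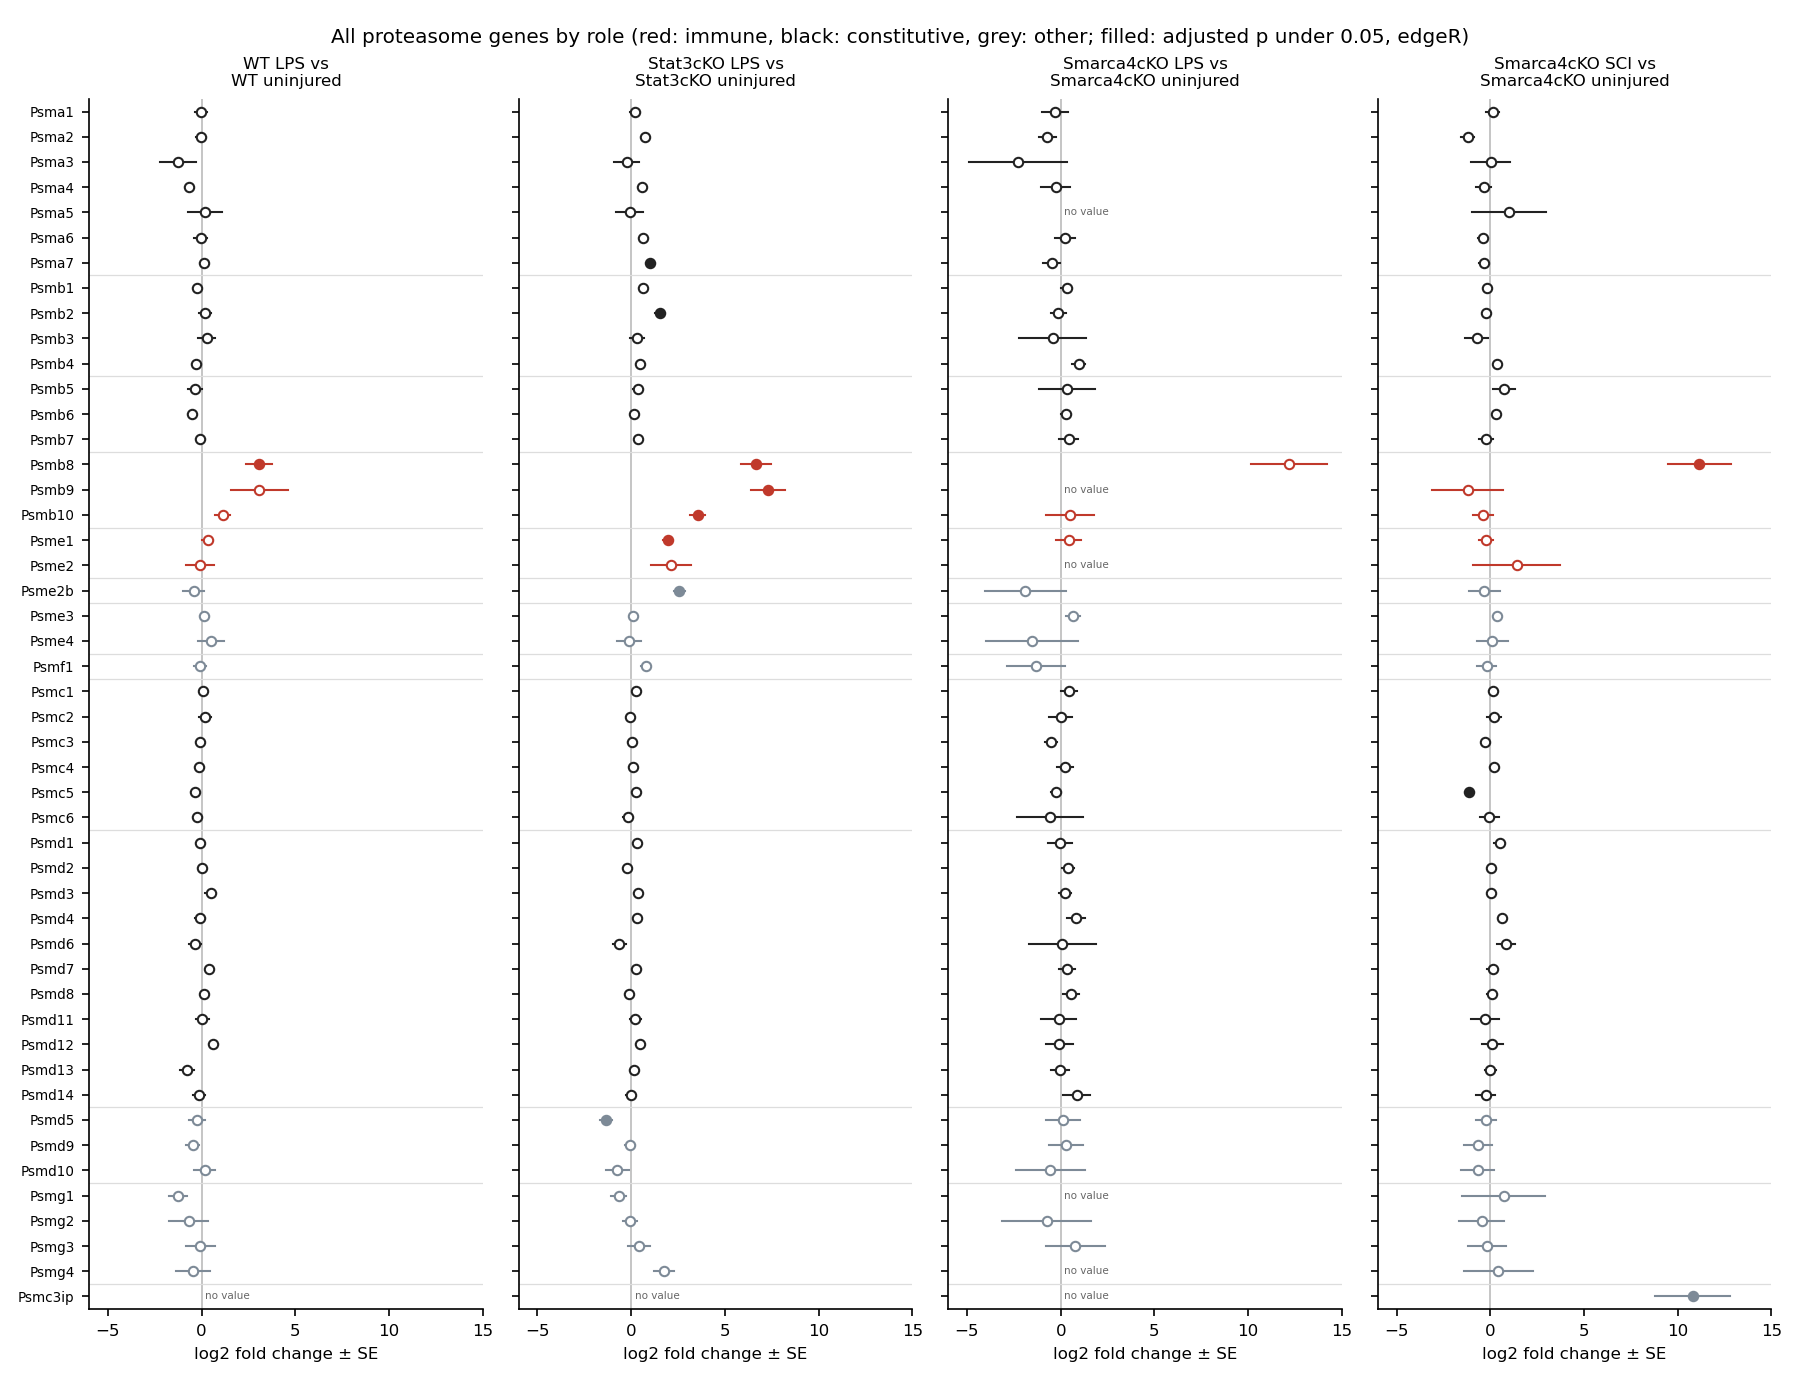
Log2 fold change ± SE of all proteasome genes with a value in each of the 4 comparisons, ordered by role from the alpha ring at the top to the assembly chaperones at the bottom. Red marks immune members, black constitutive subunits and grey the others, and filled points passed an adjusted p under 0.05 in edgeR; the immune catalytic subunits stand to the right in both LPS comparisons of WT and Stat3cKO, and most constitutive subunits lie closer to 0, with Psmb2 (1.54) and Psma7 (1.02) in Stat3cKO and Psmc5 (−1.11) in SCI passing.

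In Smarca4cKO after LPS, where 0.0249% of 8040 genes were called, 0 of 42 members passed in edgeR, 1 (Psmb8) passed in DESeq2, and before adjustment 2 (Psmb8 and Psmb4) were below 0.05. Groups did not overlap, with LPS higher, for 3 of 42 members (Psmb4, Psmb6 and Psmb8) against 8.83% of genes, and with LPS lower for 0 against 8.18%. The median was 0.04 for the 30 constitutive subunits with values, with 15 estimates above 0 and 15 below. Without the library labelled Smarca4cKO LPS 2 0 of 42 members passed and Psmb8 alone had an unadjusted p under 0.05. Psmb4, Psmb6 and Psmb8 were then still apart with LPS higher (12.7% of genes), Psma1 was apart with LPS lower (12.6%), and the constitutive median was 0.14, with 20 estimates above 0. Some constitutive subunits were close to absent from single libraries of this genotype. Taking less than 10% of a gene's median CPM over all libraries as low, the library labelled Smarca4cKO LPS 2 was low for 5 of 30 constitutive subunits: Psma3, Psmb3, Psmb5, Psmc6 and Psmd6. Of these, Psmb5 is the subunit whose place Psmb8 takes, and that library held 62 Psmb5 and 3961 Psmb8 counts. Psma3 had 3 and 0 counts in LPS 1 and 2 and 583 in LPS 3, and Psma5 had 1, 1223 and 27 counts in the 3 uninjured libraries. No constitutive subunit was low in any WT, Stat3cKO or SCI library. The median coefficient of variation over constitutive subunits was 45.01% in Smarca4cKO LPS and 31.5% in Smarca4cKO uninjured, against 11.9% to 22.5% in the other 5 groups. It was 48.1% in Smarca4cKO LPS without the library labelled Smarca4cKO LPS 2. Counts near 0 in single libraries of this genotype thus also occurred outside the immune set. No constitutive subunit was at 1 count or fewer in all 3 uninjured libraries, as Psmb8 was. Over all genes of the SCI comparison, 17.8%, 25.7% and 21.2% had 10 counts or fewer in the 3 uninjured libraries. After SCI the share was 0.099% to 1.04%. For genes of the LPS comparison it was 4.82% to 9.17% uninjured and 1.35% to 14.9% after LPS. Near-absent counts were thus common in these uninjured libraries among genes of the SCI comparison, and less so among those of the LPS comparison. The SCI comparison lists genes with 0 uninjured counts, such as Psmc3ip and Irf8, which entered it through their SCI counts. In uninjured WT libraries the share was 2.09% to 8.06% over genes of the WT comparison. The uninjured Smarca4cKO libraries also underlie the rises of Psmc3ip, Irf8, Irf1, Usp18 and Isg15 after SCI.

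**Figure D4:**
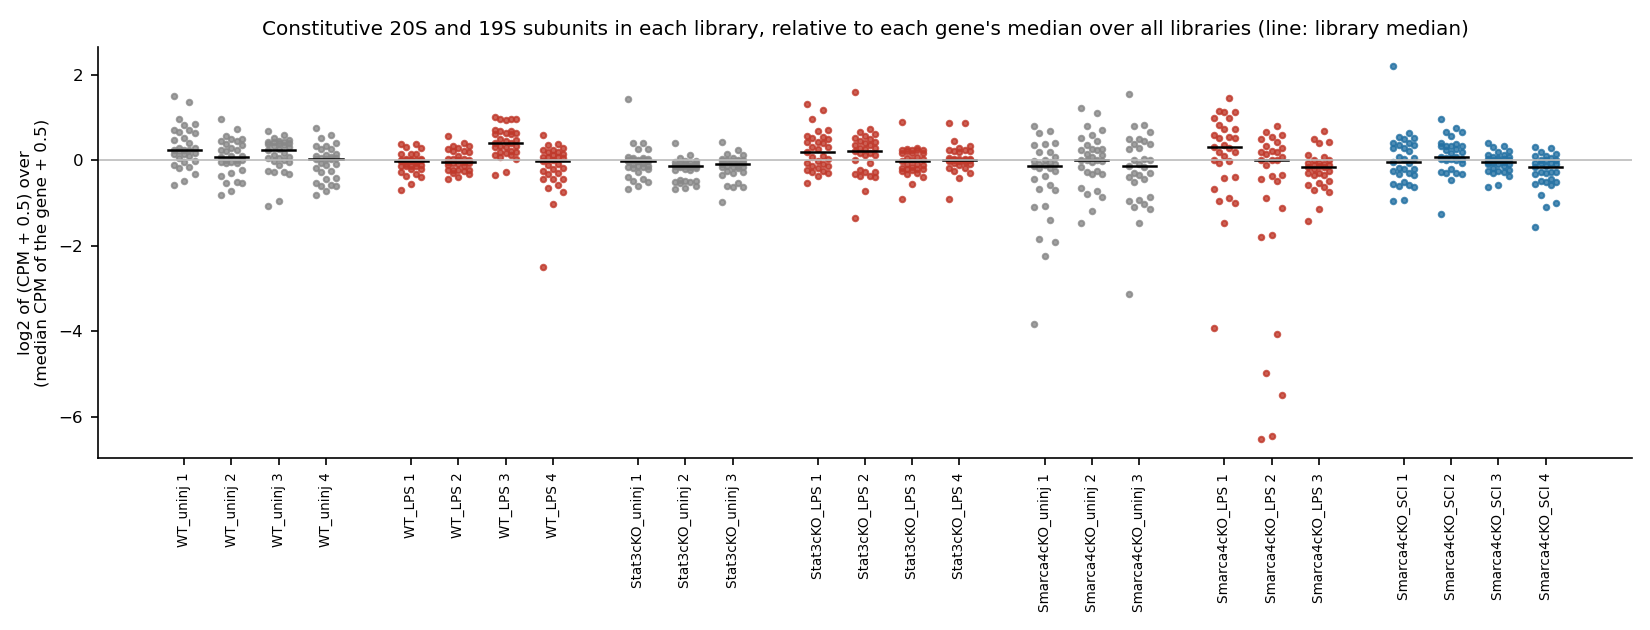
Each point is 1 constitutive 20S or 19S subunit in 1 library, as log2 of (CPM + 0.5) over (the gene's median CPM over all libraries + 0.5), with a line at the library median and colours as before (grey uninjured, red LPS, blue SCI). Library medians stay near 0, and the points furthest below it are single genes of Smarca4cKO uninjured 1 and 3 and of Smarca4cKO LPS 1 and 2.

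In Smarca4cKO after SCI, where 14.5% of 11109 genes were called (10.1% higher, 4.31% lower), 3 of 48 members passed. Groups did not overlap for 5 members with SCI higher and 2 with SCI lower, against 19.5% and 9.1% of genes. Psmb8 rose, as given above, and the other 4 immune members did not pass, with estimates from −1.20 to 1.41. Psmc5, a 19S ATPase, stood at 198, 210 and 219 CPM uninjured and at 79.2, 148, 103 and 76.7 CPM after SCI. It fell by 1.11 ± 0.25 on the log2 scale (adjusted p = 0.0171), a call lost without SCI 3 or SCI 4. Psmc3ip had 0 counts in the 3 uninjured libraries and 270, 425, 222 and 9 after SCI, at least 217-fold higher against a floor of 3 counts over the group (adjusted p = 0.0149). It has values in this comparison alone and entered the test through its SCI counts. Its place among the 3 called members therefore adds no support beyond those counts. Psmc3ip was tested in 5 of the 7 fits without 1 library, and not without SCI 1 or SCI 3. Psma2, an alpha ring subunit, stood at 129, 172 and 114 CPM uninjured and at 84.7, 33.2, 80.1 and 56.7 CPM after SCI; its estimate of −1.20 ± 0.35 missed the threshold in edgeR (adjusted p = 0.0606) and is called in the authors' deposited table.

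As summed levels, the 5 immune members together had 115 ± 39.1 CPM in uninjured WT (SD, n = 4) and 237 ± 85.8 CPM after LPS (n = 4). In Stat3cKO the sums were 74.1 ± 8.56 CPM (n = 3) and 979 ± 332 CPM (n = 4), and in Smarca4cKO 123 ± 25.5 CPM uninjured (n = 3) and 128 ± 50.1 CPM after SCI (n = 4). So the rise of Psmb8 after SCI was not matched by the immune sum, to which Psmb10 and Psme1 contributed most. The 30 constitutive subunits with values in all tables summed to group means of 2672 to 3358 CPM.

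Whether the LPS responses differ between genotypes was tested as an interaction. Between Stat3cKO and WT, where 0.377% of 10341 genes differed (0.3% higher in Stat3cKO, 0.0774% lower), 1 of 47 members passed: Psme2b, whose response was 2.98 ± 0.61 higher in Stat3cKO (adjusted p = 0.035), although 9 of the 15 fits that dropped a library lost it, with adjusted p reaching 0.117, and the fit of all 7 groups did not call it. The 5 immune members had estimates above 0 that did not pass: 3.59 ± 1.01 for Psmb8 (adjusted p = 0.163), 4.18 ± 1.55 for Psmb9 (0.352), 2.39 ± 0.56 for Psmb10 (0.0739), 1.63 ± 0.40 for Psme1 (0.0808) and 2.18 ± 1.30 for Psme2 (0.679). Psmb10 passed in 1 of 15 fits, without WT LPS 3 (adjusted p = 0.0294). So the larger immune-subunit changes in Stat3cKO are not shown to differ from those in WT, except for the uncertain copy Psme2b, although DESeq2 called 4 members (Psma4, Psmb10, Psme1 and Psme2b). Between Smarca4cKO and WT, where 0.316% of 7919 genes differed (0.177% higher in Smarca4cKO, 0.139% lower), Psmb8 passed, with a response 9.10 ± 1.48 higher in Smarca4cKO (adjusted p = 0.0136) in the full fit and in all 14 fits without 1 library, among them 8.99 (adjusted p = 0.0251) without the library labelled Smarca4cKO LPS 2. This size rests on the 2 uninjured counts: after LPS, Psmb8 stood at 22.1 to 91.0 CPM in WT and 22.3 to 64.1 CPM in Smarca4cKO, with overlapping libraries. Between Stat3cKO and Smarca4cKO, and between SCI and LPS in Smarca4cKO (which share the uninjured libraries), 0 members passed in edgeR, 7 and 1 had an unadjusted p under 0.05, and DESeq2 called 2 and 1. In the first, Psmb8 (−5.57 ± 1.30, adjusted p = 0.0795) passed without Stat3cKO uninjured 3 or Smarca4cKO LPS 3, and was −5.45 (adjusted p = 0.154) without the library labelled Smarca4cKO LPS 2. No count of members called changed without it. These counts stand against 0.838% of genes called in the first (0.375% higher, 0.463% lower) and 3.78% in the second (1.41% higher, 2.37% lower).

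Without challenge, genotypes were compared against WT. In Stat3cKO 0 of 47 members passed in edgeR (1 in DESeq2, 7 at an unadjusted p under 0.05), against 0.0777% of genes, and 39 of 47 estimates were below 0, with a median of −0.29 beside −0.01 over all genes. In Smarca4cKO 0 of 47 passed (4 in DESeq2, 8 at an unadjusted p under 0.05), against 0.0102% of genes. Psmb8 there had an estimate of −9.41 ± 2.50 (adjusted p = 0.175) that DESeq2 and the fit of all 7 groups called lower.

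The wider pathway was followed with lists of related genes. Of 21 tested proteasome assembly factors, ubiquitin shuttles and regulators, 0 passed in WT, Smarca4cKO LPS or SCI. In Stat3cKO 2 rose and 1 fell: Zfand2a, a stress-induced proteasome adaptor, by 2.09 ± 0.45 (adjusted p = 0.0147), Pomp, which chaperones assembly of new cores and favours the immune form, by 1.33 ± 0.21 (adjusted p = 0.0028), and the shuttle Ubqln4 by −1.02 ± 0.23 (adjusted p = 0.019). Pomp stood at 47.3 to 68.8 CPM in uninjured Stat3cKO libraries and at 121 to 162 CPM after LPS, without overlap. In WT it stood at 79.1 to 162 CPM uninjured and at 62.7 to 124 CPM after LPS (estimate −0.37 ± 0.28, adjusted p = 0.667). Its uninjured Stat3cKO values lay below all uninjured WT ones, although that difference did not pass (−0.99 ± 0.27, adjusted p = 0.528). The 2 rises and 1 fall among 21 stand beside 7.12% of all genes higher and 3.44% lower in Stat3cKO, and are close to these shares. The list medians were 0.24, −0.07, −0.16 and −0.19 in WT, Stat3cKO, Smarca4cKO LPS and SCI.

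Of the interferon signalling genes that act upstream of the immunoproteasome, 1 of 12 rose in WT (Irf9, 1.81 ± 0.39, adjusted p = 0.0327), 8 of 16 in Stat3cKO, 0 of 10 in Smarca4cKO after LPS and 2 of 14 after SCI, where Jak1 fell. The largest rises were Irf7 (8.17 ± 1.21, adjusted p = 0.0022) and Irf8 (7.13 ± 1.40, adjusted p = 0.00959) in Stat3cKO, and after SCI Irf8, from 0 counts in each uninjured library to 679 to 1497 (adjusted p = 0.00681), and Irf1, from at most 3 counts to 642 to 1614 (adjusted p = 0.00921). Of 11 genes of peptide loading and class I, which receive the peptides, 1 rose in WT (H2-K1, 1.21 ± 0.28, adjusted p = 0.0454) and 8 in Stat3cKO, led by Tap1 (6.56 ± 0.28, adjusted p = 5.87e-07) and H2-D1 (3.53 ± 0.22, adjusted p = 9.2e-06). After SCI 3 of 11 rose, among them H2-D1 (2.67 ± 0.53, adjusted p = 0.0101) and B2m (1.11 ± 0.19, adjusted p = 0.00652), and Canx fell by 0.61 ± 0.11 (adjusted p = 0.00754). Of 12 ubiquitin and ubiquitin-like genes, 0 passed in WT, 5 rose in Stat3cKO and 2 after SCI. Usp18 and Isg15, the protease and the modifier of the interferon-induced ubiquitin-like system, led in Stat3cKO and were the 2 called after SCI. Their uninjured Smarca4cKO counts were at most 2 and 1, which limits how well the size of the SCI rises can be known. Tap1, the neighbour of Psmb9, stood at 543 to 753 CPM in Stat3cKO LPS libraries and 4.78 to 8.54 CPM in uninjured ones. Over all genes 1.54% were higher in WT, 7.12% in Stat3cKO, 0.0249% in Smarca4cKO LPS and 10.1% in SCI, and the 2 of 14 and 2 of 12 after SCI stand little above that share. Without the library labelled Smarca4cKO LPS 2 0 genes of these lists passed in Smarca4cKO LPS. These lists share challenge and control libraries with the proteasome genes, so their values are set side by side only.

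Over all 25 libraries the genes whose log2(CPM + 0.5) followed Psmb8 most closely, of 7788 ranked, were Ifitm3 (Pearson r = 0.966), H2-D1 (0.948), H2-Q4 (0.948), Igtp (0.941) and Gbp3 (0.928). Among proteasome genes the closest were Psme1 (0.687), Psmb2 (0.625) and Psmb4 (0.556), with Psmb10 at 0.457 and the partner Psmb5 at 0.119. Without the library labelled Smarca4cKO LPS 2 the values of the first 5 were 0.966, 0.948, 0.948, 0.940 and 0.927, and Psmb10 and Psmb5 stood at 0.704 and 0.374. These values describe libraries that share group means and scaling, and Psmb9 and Psme2 were not ranked because they lack values in 1 table.

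Markers of other cells were read beside these results, since fewer cells of a type and less RNA per cell cannot be told apart in such libraries. In Stat3cKO the 8 of 14 microglial markers with values summed to 155 to 225 CPM uninjured and to 214 to 281 CPM after LPS. Sall1, the most abundant of them, averaged 103 CPM uninjured and 50.2 CPM after LPS. The list's median log2 estimate was 2.53, with 2 markers called higher and 1 lower. The 3 of 10 monocyte and macrophage markers summed to 0.067 to 4.73 and to 20.004 to 40.3 CPM. Lck, 1 of 10 T and NK cell markers, went from 0 CPM to 2.25 to 16.5 CPM. The 10 neuronal markers summed to 304 to 371 CPM uninjured and 613 to 841 CPM after LPS, with 4 called higher and 0 lower. The 9 oligodendrocyte markers summed to 5685 to 7415 and to 9525 to 12519 CPM, with 2 called higher and 0 lower. In Stat3cKO the sums were lower after LPS for oligodendrocyte progenitors (165 to 282 against 346 to 396 CPM, 1 called lower). Fibroblast sums were 142 to 161 against 220 to 270 CPM (1 called lower), and ependymal sums 123 to 157 against 170 to 181 CPM. Over all genes 7.12% were higher and 3.44% lower there. In WT the microglial sum was 126 to 264 CPM uninjured and 125 to 228 CPM after LPS, and Cd68, the macrophage marker with values, was at 2.97 to 5.13 and 4.71 to 10.6 CPM. The WT neuronal sum was 251 to 440 and 390 to 631 CPM, and the oligodendrocyte sum 5998 to 10626 and 5692 to 12039 CPM. In Smarca4cKO the microglial sum was 179 to 546 CPM uninjured and 466 to 1445 CPM after SCI, the macrophage sum 12.7 to 74.4 and 94.99 to 501 CPM, and the sum of 9 oligodendrocyte markers 6273 to 11895 and 27755 to 38112 CPM, while 7 of 12 astrocyte markers fell and 1 rose. After LPS in Smarca4cKO the 4 microglial markers with values summed to 131 to 293 CPM. Csf3r, 1 of 7 neutrophil markers, has values in the Smarca4cKO uninjured and SCI libraries only. It stood at 0 to 0.0244 CPM uninjured and at 7.54 to 10.97 CPM after SCI, and was called higher (log2 estimate 9.85). Its uninjured counts near 0 limit how well that size can be known. Ptprc, Cd3e, Ms4a1, Ly6g and S100a8, defining markers of blood leukocytes, have no values analysed here. The part of these cells in the Psmb8, Psmb9 and Psmb10 changes was not tested.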

How the data were processed

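RNA bound to tagged ribosomes was sequenced as 50 bp paired reads. The authors deposited 4 tables of raw read counts per gene, each for 1 comparison, with their own log2 fold changes and p-values with false discovery rates, per the file headers. Per the submitters' processing notes, mm10 was the build, and the tools listed without roles are HTSeq 0.6.0, edgeR 3.28.0 and STAR 2.4.0j. The tables list subsets of genes (8052 to 11712 of 12454), so a gene absent from one has no value there, and the authors' 56 per-sample columns of normalized counts and of ratios to a group were not used.

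Counts were tested with edgeR 4.0.16 (TMM, filterByExpr, quasi-likelihood, Benjamini-Hochberg over all genes, threshold 0.05, SE as the absolute log2 fold change over the square root of F) in R 4.3.3, and the code was tested on simulated data. Alternatives were DESeq2 1.42.0, RLE scaling, no filter, 1 fit of all 7 groups and leaving out each library. Levels and correlations without Smarca4cKO LPS 2 were added after seeing the data. CPM values use 1 TMM scale over the 7834 genes in all 4 tables, and CPM per kb divides by the median GENCODE M21 basic transcript length. Ratios used scipy 1.17.1. Promoter windows are from RefSeq (GRCm38.p6). Library totals of 52433934 to 106513035 counts set the precision, and intervals and floors cover counting error only. Nothing in the labels pairs animals. The edgeR and DESeq2 p-values set a group difference against the estimated spread between samples, and the ratio p-values come from permuting libraries.

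All members are covered; the immune members, their partners and Psme3 are given in every library, other members where they passed a test, and 2 genes at most per related list and direction. Members, lists and tests were chosen with earlier results of these data known, and a few further members (Psmg1, Psmg4, Psmf1, Psme4, Psma2, Psma3, Psma5) were named after their values were seen.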

Additional observations from a re-analysis of the deposited data

Results flagged for a closer look

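In groups of 4 libraries, 57 sets of values were examined for a library far from the others, and 3 were found, where chance gives about 1 in 20. Psmb9 stood at 110 CPM in Stat3cKO LPS 4, below the 161 to 169 CPM of the other LPS libraries of that genotype. Psmb5 stood at 26.9 CPM in WT LPS 4, below 53.5 to 57.9 CPM. Psmb7 stood at 178 CPM in WT LPS 3, above 93.7 to 107 CPM.

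The LPS response differed between genotypes for 2 members by edgeR's test of the difference. Psme2b had a log2 response 2.98 higher in Stat3cKO than in WT, a call the fit of all 7 groups did not make, and reads of this copy cannot be told from those of Psme2 with certainty. Psmb8 had a log2 response 9.10 higher in Smarca4cKO than in WT, a size that rests on 2 uninjured counts, while its CPM after LPS overlapped between these genotypes.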

How the results depend on the processing

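RLE scaling and the absence of a filter changed no count of members called. DESeq2 called 11 members higher and 1 lower in Stat3cKO LPS, against 7 and 1 in edgeR, 1 member in Smarca4cKO LPS, 5 in SCI, 4 for Stat3cKO minus WT, 2 for Stat3cKO minus Smarca4cKO, 1 for SCI minus LPS, 1 for uninjured Stat3cKO and 4 for uninjured Smarca4cKO against WT. The fit of all 7 groups, which tests 42 members on 7834 genes, called 4 in Stat3cKO LPS, 2 in Smarca4cKO LPS, 0 for Stat3cKO minus WT, 1 for Stat3cKO minus Smarca4cKO, 1 for SCI minus LPS and 4 for uninjured Smarca4cKO. Over all genes DESeq2 called 339 higher and 274 lower in WT LPS, against 163 and 105 in edgeR, and 202 and 86 in Smarca4cKO LPS, against 2 and 0. The cause was not tested.

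Leaving out 1 library at a time gave 0 to 1 members in WT LPS, 7 to 9 in Stat3cKO LPS, 1 to 5 in SCI, 0 to 4 for Stat3cKO minus WT, 1 to 2 for Smarca4cKO minus WT, 0 to 4 for Stat3cKO minus Smarca4cKO and 0 to 2 for SCI minus LPS. Ratio differences that changed sign ran from −2.47 to 2.91 for Psmb9 to Psmb6 in SCI, from −2.85 to 0.48 and −0.78 to 0.37 for Psmb10 to Psmb7 in Smarca4cKO LPS (0.48 without the library labelled Smarca4cKO LPS 2) and SCI, and from −0.050 to 0.22 for PA28 in WT. Log2 estimates that changed sign were all of uncalled genes. In Smarca4cKO LPS they ran from −0.82 to 1.06 for Psmb10, −0.25 to 0.72 for Psme1, −1.48 to 0.92 for Psmb5 and −0.17 to 0.73 for Psmb7. In SCI they ran from −0.44 to 0.038 for Psme1 and −0.52 to 0.058 for Psmb7, and in WT LPS from −0.31 to 0.27 for Psme2 and −0.34 to 0.028 for Psmb7. For SCI minus LPS they ran from −1.39 to 0.50 for Psmb10, −0.86 to 0.090 for Psme1, −0.11 to 2.30 for Psmb5, −0.89 to 0.036 for Psmb7 and −0.48 to 0.087 for Psme3. For Smarca4cKO minus WT they ran from −0.61 to 0.35 for Psme1, −1.13 to 1.24 for Psmb5 and −0.11 to 0.77 for Psmb7. For Stat3cKO minus Smarca4cKO they ran from −0.54 to 1.85 for Psmb5 and −0.38 to 0.51 for Psmb7, and for Stat3cKO minus WT from −0.16 to 0.11 for Psme3. Without challenge they ran from −0.65 to 0.025 for Psmb10 in Stat3cKO against WT, and from −0.47 to 0.029 for Psme1 and −0.37 to 0.15 for Psmb7 in Smarca4cKO against WT. The cause was not tested.

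No paired analysis was possible because animals carry numbers that no label ties across groups. Counts of 0 to 1 for Psmb8 in uninjured Smarca4cKO libraries limit how well its fold can be known, and the Smarca4cKO tables rest on 3 uninjured libraries.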
